A study of Mus musculus with 59 samples.

Results

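The enzymes that make serine and pass its carbon into the folate pools were examined in embryoid bodies (EBs) exposed to mouse serum. The list holds 9 genes taken by symbol, *Phgdh*, *Psat1*, *Psph*, *Shmt1*, *Shmt2*, *Mthfd1*, *Mthfd2*, *Mthfd1l* and *Aldh1l2*. Of these, 8 were among the 19613 genes of the value table, and *Psph*, the phosphatase of serine synthesis, was not analysed here. The genes were proposed with the contrast of carrier and non-carrier serum over these arrays known, so the values of that contrast describe them and are no independent evidence of their direction. *Psat1*, *Shmt2*, *Mthfd2* and *Mthfd1l* are also classifier genes that the study picked on arrays of this series, and *Phgdh*, *Shmt1* and *Mthfd1* belong to gene sets that it picked there.

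Serum came from male mice of the line B6SJL-Tg(SOD1*G93A)1Gur/J, bred as F1 progeny of C57BL/6 and SJL, that were either hemizygous carriers of a mutant human *SOD1* transgene or littermates without it. The mice had no symptoms yet. The labels state 9 weeks on 53 arrays and 10 weeks on the other 6, worded as a time of the cultures. This was read here as the age of the mice. In the indicator cell assay (iCAP), EBs from a single embryonic stem cell line, HBG3 with an HB9-eGFP reporter, were induced toward spinal motor neurons and kept with 5% serum for 24 h. Their RNA was measured on Affymetrix mouse exon arrays, 29 with carrier and 30 with non-carrier serum. Only the serum differed between the groups, and the EBs carried no *SOD1* transgene.

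An EB is a mixture of motor neurons, progenitors and other cells, so fewer cells of a type and less RNA per cell cannot be told apart. Of 6 motor neuron markers 5 had a value, with *Isl1* above 95.7%, *Lhx3* above 80.6%, *Chat* above 80.2% and *Mnx1* above 77.4% of all genes in mean intensity. The mean log2 intensity of these markers had a range of 8.98 to 9.65 over the carrier and of 9.13 to 9.61 over the non-carrier arrays. Over 8 lists of cell type markers, 32 of 35 genes had a value (not *Slc18a3*, *Slc1a3* and *Hba-a1*), and limma called 0 of them between the sera. At an unadjusted p under 0.05 in limma 3 were lower, *Olig2* (log2 change -0.085), *Lhx3* (-0.086) and *Nkx6-1* (-0.083), of the motor neuron and progenitor lists. Another 7 were higher, *Isl1* (0.053) and *Isl2* (0.094) of the motor neuron list, and *Pou5f1* (0.12), *Nanog* (0.11), *Mki67* (0.076), *Hbb-b1* (0.16) and *Csf1r* (0.072). Of all 19613 genes 4057 were under that p. The part of cell composition in the serum changes was not tested. The labels name no batch, and the titles of the arrays, by a common name or consecutive numbers, gave 9 runs, called motorneuron, HB9MNs, A to F and 10-week here. Each run held 2 to 6 arrays of either serum, and run C, with 11 arrays, probably holds more than 1 batch of EBs. The labels do not say that each array had the serum of a different mouse, so errors and p-values measure the spread between arrays.

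Serine is built from a glycolytic intermediate by a dehydrogenase (*Phgdh*), an aminotransferase (*Psat1*) and a phosphatase (*Psph*). Serine hydroxymethyltransferases move a carbon of serine onto tetrahydrofolate, in the cytosol (*Shmt1*) or in mitochondria (*Shmt2*), and each compartment has its own enzymes to oxidise that unit, with formate passing between them. The carbon is used for purines, for thymidylate and for the methylation of homocysteine to methionine, and several of these genes are known targets of ATF4, a transcription factor of the amino acid and unfolded protein responses.

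With carrier serum the transcripts of the 4 mitochondrial folate enzymes of the list and of *Psat1* were lower, and those of the cytosolic enzymes *Shmt1* and *Mthfd1* stayed close to the non-carrier level. In a limma fit over all genes with the run as a block, 5 of the 8 genes were called lower at an adjusted p under 0.05, *Mthfd2*, *Shmt2*, *Aldh1l2*, *Mthfd1l* and *Psat1*. None was called higher, 0 of 8 also at an unadjusted p under 0.05. Of all genes, 1.65% were called lower and 0.683% higher in this fit, 2.33% in either direction. Between arrays of one serum within a run the SD of the log2 intensity was 0.20 for *Mthfd2*, 0.17 for *Aldh1l2*, 0.16 for *Psat1*, 0.15 for *Shmt2*, 0.12 for *Mthfd1l*, 0.10 for *Phgdh*, 0.089 for *Shmt1* and 0.071 for *Mthfd1*. The median log2 change over the 8 genes was -0.19, beside 0.016 over all genes, of which 38.9% were lower. The carrier mean was lower in 7 or more of 9 runs for 6 of the 8 genes, as for 13.8% of all genes, and in all 9 runs for 0, as for 1.11% of all genes. The count of 5 called genes was 2 without run F, 3 without run B, D or the 10-week run, and 0 by limma without both E and F, where 5 genes were lower at an unadjusted p under 0.05. The share of all genes called lower fell as well in these fits, to 0.566% without run F, 0.627% without run B, 0.413% without run D, 0.464% without the 10-week run and 0.163% without E and F.

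**Figure D1:**
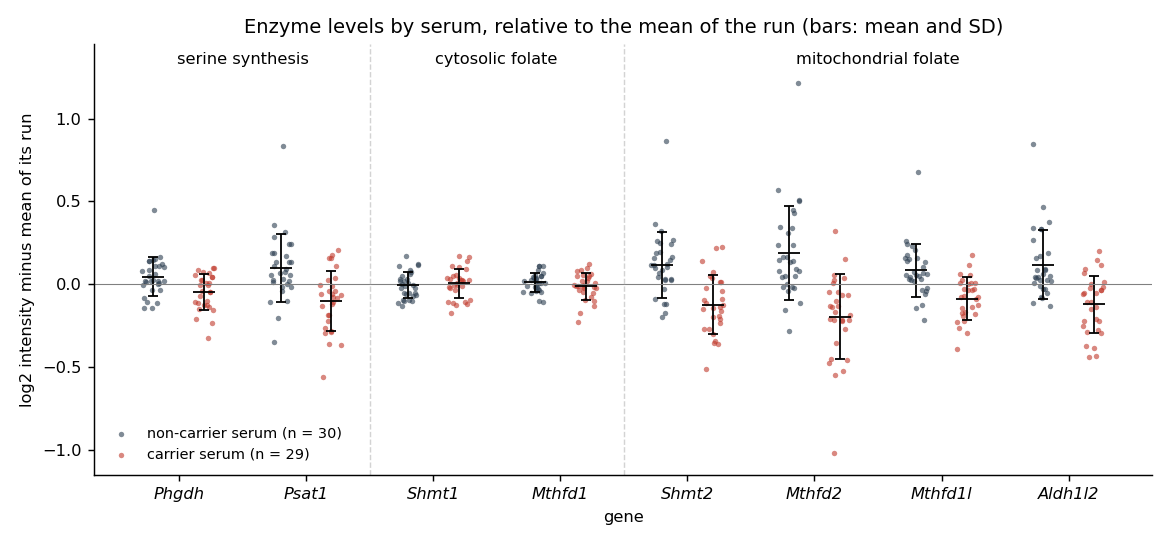
Log2 intensity of each enzyme on every array, less the mean of its run (y axis), by gene (x axis) for 30 non-carrier and 29 carrier arrays, with the mean and SD of each group. The carrier arrays of *Mthfd2* reach from -1.02 to 0.32 and its non-carrier arrays from -0.28 to 1.22, whereas both groups of *Shmt1* lie between -0.17 and 0.17.

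*Phgdh*, the first enzyme of serine synthesis, had log2 intensities of 9.44 to 10.65 with carrier (median 9.84) and of 9.49 to 10.81 with non-carrier serum (median 9.87). The groups overlapped over nearly their whole range, since the runs differ. Relative to the mean of its run, 17 of 29 carrier arrays were below and 21 of 30 non-carrier arrays above. The log2 change over all runs was -0.093 (SE 0.031, 95% confidence interval -0.16 to -0.030), and it did not pass the adjusted threshold. In 7 of 9 runs the carrier mean was the lower one. All carrier arrays lay below all non-carrier arrays in 4 runs, in each of which 5.08% to 13.1% of all genes did so. They lay above in 1 run, HB9MNs, with 2 arrays a group. In HB9MNs 31.7% of all genes lay below without overlap, and the share that lay above is not given here.

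*Psat1*, the aminotransferase that follows, had log2 intensities of 9.78 to 11.19 with carrier (median 10.31) and of 9.90 to 11.30 with non-carrier serum (median 10.61). Below the mean of their run were 22 of 29 carrier arrays, and above it were 22 of 30 non-carrier arrays. The log2 change was -0.20 (SE 0.053, 95% confidence interval -0.31 to -0.093), a carrier level of 87.1% of the non-carrier level. The call (limma, adjusted p = 0.0311) was lost in 11 of 26 alternatives. *Psat1* was lower in 7 of 9 runs, and in 5 of them every carrier array was below every non-carrier array. In each of these 5 runs 5.26% to 13.1% of all genes lay below in this way.

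*Shmt2*, which takes the carbon from serine in mitochondria, lay between 9.63 and 10.87 with carrier (median 10.14) and between 9.74 and 11.18 with non-carrier serum (median 10.35). Of the carrier arrays 21 of 29 were below and of the non-carrier arrays 24 of 30 above the mean of their run. The log2 change was -0.24 (SE 0.052, 95% confidence interval -0.35 to -0.14), or 84.5% of the non-carrier level. Carrier and non-carrier arrays did not overlap in 6 of 9 runs, each time with carrier serum below. In each of these 6 runs 5.08% to 13.1% of all genes lay below without overlap.

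*Mthfd2*, the mitochondrial dehydrogenase and cyclohydrolase that oxidises the carbon taken up by folate, had the largest change of the list. Its log2 intensity was 7.68 to 9.76 with carrier (median 8.22) and 7.70 to 10.34 with non-carrier serum (median 8.79). The log2 change of -0.39 (SE 0.074, 95% confidence interval -0.53 to -0.24), or 76.5% of the non-carrier level, was rank 7 from the lowest of all 19613 genes. Carrier serum gave the lower mean in 8 of 9 runs, with no overlap of arrays in 6. In each of these 6 runs 5.08% to 31.7% of all genes lay below without overlap, the highest share in HB9MNs. Below the mean of their run were 23 of 29 carrier arrays, and above it 23 of 30 non-carrier arrays.

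*Mthfd1l*, the mitochondrial synthetase that releases formate, lay between 7.80 and 8.93 with carrier (median 8.38) and between 7.96 and 9.16 with non-carrier serum (median 8.45). The pooled medians are close, but within runs 20 of 29 carrier arrays were below and 23 of 30 non-carrier arrays above the mean. Its log2 change was -0.17 (SE 0.040, 95% confidence interval -0.25 to -0.090), or 88.8% of the non-carrier level, with 8 of 9 runs lower and 5 without overlap. In each of these 5 runs 5.08% to 13.1% of all genes lay below without overlap.

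*Aldh1l2*, the mitochondrial dehydrogenase that oxidises formyl-tetrahydrofolate, lay between 8.49 and 9.78 with carrier (median 8.84) and between 8.64 and 10.02 with non-carrier serum (median 9.02). Its log2 change was -0.24 (SE 0.053, 95% confidence interval -0.35 to -0.14), or 84.6% of the non-carrier level. It was lower in 7 of 9 runs, with no overlap in 6, and above without overlap in 1, the run HB9MNs with 2 arrays a group. In each of the 6 runs 1.69% to 13.1% of all genes lay below without overlap. In HB9MNs 31.7% did so, and the share that lay above is not given here. Unlike the other 3 mitochondrial enzymes it was not among the study's own features.

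*Shmt1*, the cytosolic counterpart of *Shmt2*, lay between 6.65 and 7.49 with carrier (median 7.08) and between 6.59 and 7.47 with non-carrier serum (median 7.10). The groups covered the same range. Its log2 change was 0.010 (SE 0.024, 95% confidence interval -0.038 to 0.059), with 4 runs lower and 5 higher. All carrier arrays lay below all non-carrier arrays in 0 runs and above them in 1, HB9MNs, with 2 arrays a group. *Mthfd1*, the trifunctional cytosolic enzyme of folate metabolism, lay between 7.31 and 7.84 with carrier (median 7.55) and between 7.38 and 7.79 with non-carrier serum (median 7.54). Its log2 change was -0.024 (SE 0.020, 95% confidence interval -0.065 to 0.017), with 5 runs lower and 4 higher. Its carrier arrays lay below without overlap in 1 run, HB9MNs, where 31.7% of all genes did so, and above in 1, run B. The intervals of both cytosolic genes leave out a change as large as that of *Shmt2*, *Mthfd2*, *Mthfd1l* or *Aldh1l2*.

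The contrast between compartments was taken as the change of one enzyme minus that of its relative on the same arrays, and is given without a test because the pairs were named with results known. *Shmt2* minus *Shmt1* gave a difference of log2 changes of -0.25 (SE 0.066), lower in 8 of 9 runs. *Mthfd2* minus *Mthfd1* gave -0.36 (SE 0.084) and was lower in 7 runs, and *Mthfd1l* minus *Mthfd1* gave -0.15 (SE 0.052) and was lower in 6 runs. Against *Aldh1l1*, the cytosolic form of the formyl-tetrahydrofolate dehydrogenase, *Aldh1l2* gave -0.26 (SE 0.075), lower in 8 runs. *Mthfd2* also differed from *Mthfd2l*, a second mitochondrial dehydrogenase of the same family, by -0.41 (SE 0.080) and was lower in 8 runs. *Mthfd2l* itself had a log2 change of 0.026 (SE 0.021; limma, adjusted p = 0.456) and *Aldh1l1* of 0.022 (SE 0.047; limma, adjusted p = 0.801).

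The mean of the 4 mitochondrial enzymes changed by -0.25 (SE 0.061) relative to the mean of *Shmt1* and *Mthfd1*. The difference was below 0 in 8 of 9 runs, from -0.90 in run B, and was 0.20 in run C. Over the alternative settings and with single runs left out it stayed between -0.42 and -0.16. The cytosolic genes were dimmer, with *Shmt1* above 45.3% and *Mthfd1* above 53.5% of all genes in mean intensity. The mitochondrial ones were above 70.5% (*Mthfd1l*) to 94.3% (*Shmt2*), and the part of intensity in the contrast was not tested.

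**Figure D2:**
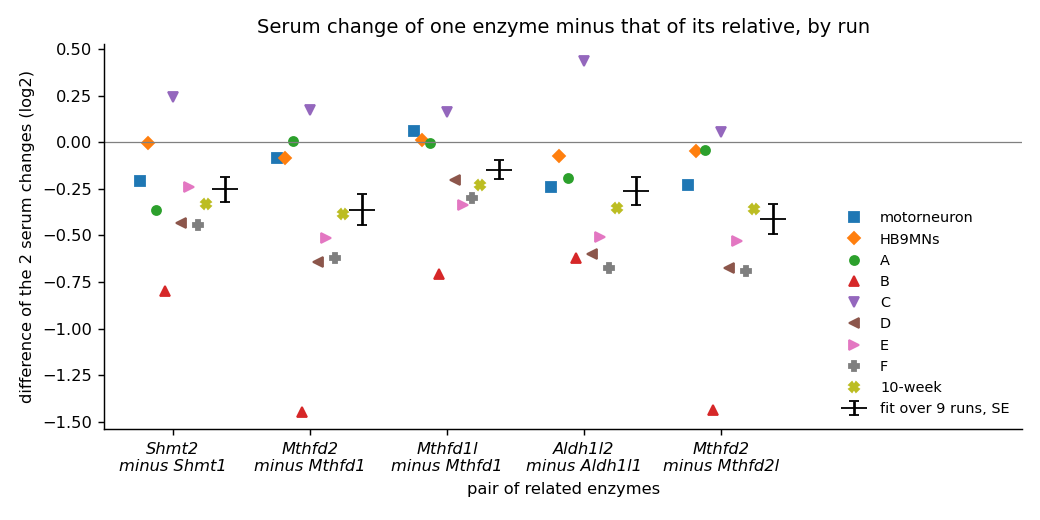
Carrier minus non-carrier log2 change of one enzyme less that of its relative (y axis) for 5 pairs (x axis), with 1 symbol per run and, at the right of each pair, the fit over 9 runs with its SE. Run C lies above 0 and run B far below 0 in every pair, and the fits lie between -0.41 and -0.15.

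For 2 pairs of a mitochondrial and a cytosolic enzyme the 250 bases before a RefSeq transcript start (mouse build GRCm38.p6) are shown, since in each pair 1 gene was called lower and the other was not. The windows are *Mthfd2* at chr6:83317605-83317854 (minus strand), *Mthfd1* at chr12:76254982-76255231 (plus strand), *Shmt2* at chr10:127522445-127522694 (minus strand) and *Shmt1* at chr11:60811266-60811515 (minus strand). They run 5′ to 3′ toward the start, with every CCAAT, or ATTGG on the other strand, in capitals.
Mthfd2: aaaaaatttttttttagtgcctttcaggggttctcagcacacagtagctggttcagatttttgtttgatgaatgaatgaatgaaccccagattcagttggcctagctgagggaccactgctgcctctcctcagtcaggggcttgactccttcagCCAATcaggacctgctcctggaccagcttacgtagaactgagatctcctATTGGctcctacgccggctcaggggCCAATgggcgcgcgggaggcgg
Mthfd1: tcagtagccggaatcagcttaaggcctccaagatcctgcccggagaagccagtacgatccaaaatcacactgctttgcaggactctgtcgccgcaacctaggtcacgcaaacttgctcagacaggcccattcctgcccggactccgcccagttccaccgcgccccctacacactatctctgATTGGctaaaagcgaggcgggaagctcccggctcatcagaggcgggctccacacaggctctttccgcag
Shmt2: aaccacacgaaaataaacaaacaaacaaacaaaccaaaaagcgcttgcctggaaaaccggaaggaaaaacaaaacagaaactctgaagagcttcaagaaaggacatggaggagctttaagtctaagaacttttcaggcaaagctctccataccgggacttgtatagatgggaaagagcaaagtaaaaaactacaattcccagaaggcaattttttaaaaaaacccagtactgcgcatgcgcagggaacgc
Shmt1: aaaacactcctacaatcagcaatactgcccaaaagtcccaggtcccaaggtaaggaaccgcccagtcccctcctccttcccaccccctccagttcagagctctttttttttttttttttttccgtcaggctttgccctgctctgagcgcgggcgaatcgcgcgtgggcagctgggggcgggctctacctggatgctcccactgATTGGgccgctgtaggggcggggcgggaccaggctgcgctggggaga
For *Mthfd2* and *Mthfd1* RefSeq lists another start further upstream, whose window is not shown. RefSeq windows were held for 8 of the 9 genes (not *Aldh1l2*), 9 windows in all. TGATGNAA, the composite element bound by ATF4 with C/EBP partners (TTNCATCA on the other strand), was in 0 of the 9 windows, beside 3.45% of 32851 mouse windows of the same length. CCAAT, a common promoter motif bound by NF-Y that was looked for after the sequences had been seen, had 3 matches before *Mthfd2*, 1 before *Mthfd1*, 0 before *Shmt2* and 1 before *Shmt1*. Of all windows 33.8% held 1 or more and 2.79% held 3 or more. The motifs were counted separately, and a match or its absence describes only the letters of the window.

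The levels of the enzymes differed between runs, as those of most genes did. All 8 genes passed the F-test over runs (limma, adjusted p from 1.27e-22 for *Phgdh* to 1.72e-08 for *Mthfd1*), as did 94.0% of all genes. Run explained 89.9% of the variance of *Phgdh*, 81.9% of that of *Mthfd2* and 64.6% of that of *Mthfd1*. The run means of *Mthfd2* spanned 2.08 log2 units, from 7.81 in run A to 9.89 in the 10-week run, those of *Psat1* 1.14, of *Shmt2* 0.98, of *Shmt1* 0.73 and of *Mthfd1* 0.34. The highest mean of *Psat1*, *Shmt2*, *Mthfd1l*, *Aldh1l2*, *Shmt1* and *Mthfd1* was in run E. Run E also had the highest mean of the 6 dividing cell markers, 9.49 against 8.72 in run A, and the part of this in the levels was not tested.

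**Figure D3:**
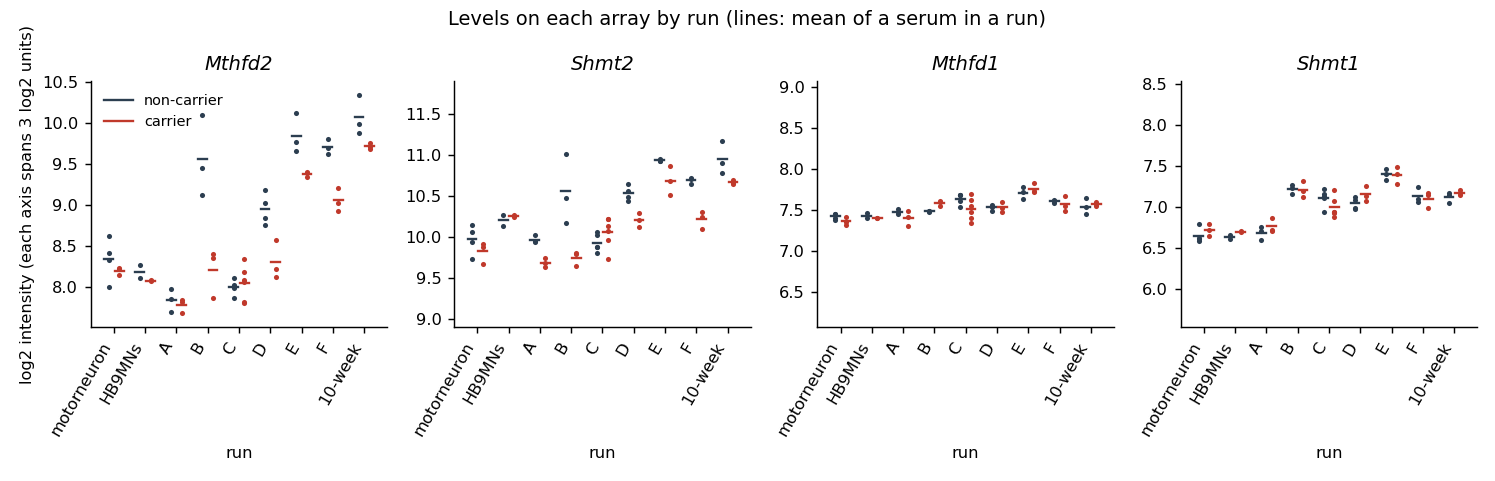
Log2 intensity of *Mthfd2*, *Shmt2*, *Mthfd1* and *Shmt1* on each array (y axes, each spanning 3 log2 units) by run (x axis), with lines at the mean of each serum in a run. *Mthfd2* runs from 7.68 to 10.34 over the arrays and *Mthfd1* from 7.31 to 7.84.

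The serum change differed between runs as well. For *Mthfd2* the mean log2 intensities with carrier and non-carrier serum were 8.21 and 9.55 in run B, 8.30 and 8.95 in run D, 9.05 and 9.71 in run F, 9.38 and 9.84 in run E, and 9.72 and 10.07 in the 10-week run. In these 5 runs, and in HB9MNs with 2 arrays a group, no carrier array reached a non-carrier array. The means were 8.19 and 8.34 in the run motorneuron, 8.07 and 8.19 in HB9MNs, 7.78 and 7.84 in run A, and in run C the carrier mean of 8.05 was above the non-carrier mean by 0.049. The smaller changes were therefore in runs with a low *Mthfd2* level with non-carrier serum, 7.84 to 8.34, whereas the 5 others had 8.95 or more. This order was noticed in the values and was not tested, and the non-carrier mean enters both the level and the change.

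Run B had the largest fall for all 6 genes of serine synthesis and mitochondrial folate metabolism, from -0.32 for *Phgdh* to -1.35 for *Mthfd2*. Its carrier arrays had *Mthfd2* values of 8.35, 8.40 and 7.86 and its non-carrier arrays values of 9.45, 9.12 and 10.10. *Shmt2* was at 9.81, 9.80 and 9.65 with carrier and at 10.48, 10.18 and 11.02 with non-carrier serum. The same non-carrier array, replicate 12, was the highest of its group in run B for all 6 genes. Without it the log2 change of *Mthfd2* over all runs was -0.34 and limma still called 5 genes lower, beside 1.23% of all genes. *Mthfd1* in run B went the other way, with 7.62, 7.55 and 7.59 on carrier and 7.49, 7.48 and 7.49 on non-carrier arrays, a difference of 0.099.

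In run C the mitochondrial enzymes were not lower. Their mean log2 change was 0.076 there, with 0 of 4 below, and that of *Shmt1* and *Mthfd1* was -0.12. In HB9MNs the mean of the mitochondrial enzymes was 0.0018, in the run motorneuron -0.10, in run A -0.13, in the 10-week run -0.29, in run E -0.34, in run D -0.37, in run F -0.52 and in run B -0.86. The cytosolic mean stayed between -0.12 and 0.056 in all 9 runs. All 4 mitochondrial enzymes lay below without overlap in runs B, D, F and the 10-week run, where 5.26%, 7.64%, 13.1% and 8.30% of all genes did so. The count was 3 in run E (5.08% of all genes), 2 in run A (8.07%), 1 in the run motorneuron (1.69%), 1 in HB9MNs (31.7%) and 0 in run C (0.413%).

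**Figure D4:**
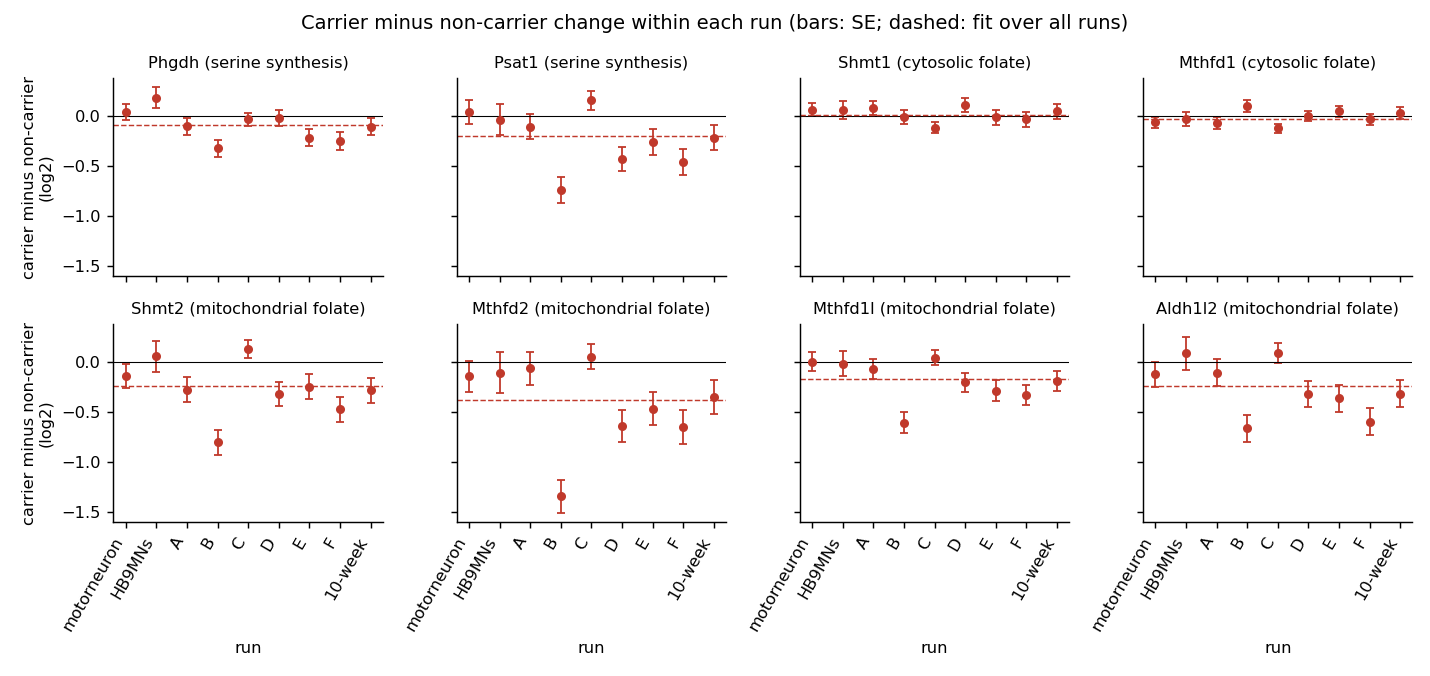
Carrier minus non-carrier log2 change of each enzyme within each run (points, with the pooled SE as bars) by run (x axis), and the fit over all runs as a dashed line. *Shmt1* and *Mthfd1* stay within -0.12 and 0.11 of 0, and the other 6 genes have their lowest point in run B.

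The test of serum by run, an F-test in limma with adjustment over all genes, was passed by *Mthfd2* (adjusted p = 0.00339), *Psat1* (adjusted p = 0.0358) and *Shmt2* (adjusted p = 0.0413), 3 of 8 genes, beside 0.127% of all genes. *Mthfd1l* and *Aldh1l2* had an adjusted p of 0.130, *Phgdh* of 0.435, *Mthfd1* of 0.751 and *Shmt1* of 0.807 in the same test. The calls depended on single runs, as did those over all genes. Without run B limma called 0 of the 8 genes and 12 of all genes, and without run C 0 and 0, with 6 of the 8 genes and 1614 and 1324 of all genes under an unadjusted p of 0.05. *Mthfd2* alone was called without run A, D or F, where 17, 16 and 15 of all genes were called. The count was 2 without HB9MNs and 4 without run E, where 21 and 42 of all genes were called. With run C parted into 2 blocks it was 1, and the count over all genes is not given here. Without non-carrier replicate 12 *Mthfd2* (adjusted p = 0.0170) and *Psat1* (adjusted p = 0.0396) were called in limma, where 22 of all genes were called.

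Around the 8 enzymes, 42 further genes of one-carbon metabolism were listed by function, and all had a value. Of these, 5 were called lower and 1 higher (limma, adjusted p under 0.05), beside 1.65% and 0.683% of all genes. Their median log2 change was -0.0063, with 22 lower and 20 higher. By the test of serum by run, 2 of the 42 differed between runs, *Cth* (limma, adjusted p = 0.00339) and *Slc1a4* (limma, adjusted p = 0.00246), beside 0.127% of all genes.

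In the methionine cycle and transsulfuration, *Cth*, the lyase that makes cysteine from cystathionine, fell by 0.42 on the log2 scale (SE 0.085; limma, adjusted p = 0.00303), from 7.24 ± 1.12 (SD, n = 30) to 6.81 ± 0.81 (SD, n = 29). It was lower in 6 of 9 runs. The other 7 genes were not called. Of these *Mat2a* (0.058, higher in 8 of 9 runs) and *Bhmt* (0.10, higher in 7 of 9) rose at an unadjusted p under 0.05 in limma. Of the serine and glycine carriers and users, *Slc1a4*, a neutral amino acid transporter that takes up serine, changed by -0.28 (SE 0.058; limma, adjusted p = 0.00360) and *Slc6a9*, a glycine transporter, by -0.24 (SE 0.055; limma, adjusted p = 0.0104). *Sptlc2*, a subunit of the palmitoyltransferase that joins serine to a fatty acid, rose by 0.12 (SE 0.023; limma, adjusted p = 0.00295) and was higher in 9 of 9 runs. Its levels were 10.06 ± 0.12 (SD, n = 29) with carrier and 9.96 ± 0.078 (SD, n = 30) with non-carrier serum.

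Among 9 other folate cycle genes limma called 0, with 1 at an unadjusted p under 0.05, *Ftcd*, a formiminotransferase of histidine breakdown, at 0.095 (SE 0.040). Of 4 folate transport genes *Slc19a1*, the reduced folate carrier, changed by -0.080 (SE 0.023; limma, adjusted p = 0.0468), a call that was lost in 15 of 26 alternatives (adjusted p from 0.00621 to 0.995), and *Folr1*, a folate receptor, had a value of 0.082 (SE 0.058) that was not called. *Impdh2*, the dehydrogenase that leads to guanine nucleotides, changed by -0.13 (SE 0.027; limma, adjusted p = 0.00559) and was the 1 called of 10 purine genes. It was lower in 9 of 9 runs, as was *Atic*, which uses formyl-folate in purine synthesis. *Atic* had -0.082 (SE 0.024; limma, adjusted p = 0.0506), just outside the threshold. Of the 10 purine genes 6 had an unadjusted p under 0.05 in limma. Of these *Adsl* (-0.078) was lower too, and *Ppat* (0.083), *Paics* (0.072, limma, adjusted p = 0.0650) and *Adss* (0.063) were higher. The median change over the 10 genes was 0.0059. In the glycine cleavage system 0 of 4 genes were called (limma), with 1 at an unadjusted p under 0.05, *Amt*, at -0.064 (SE 0.027). *Tyms*, the thymidylate synthase, had a change of 0.016 and was not called.

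**Figure D5:**
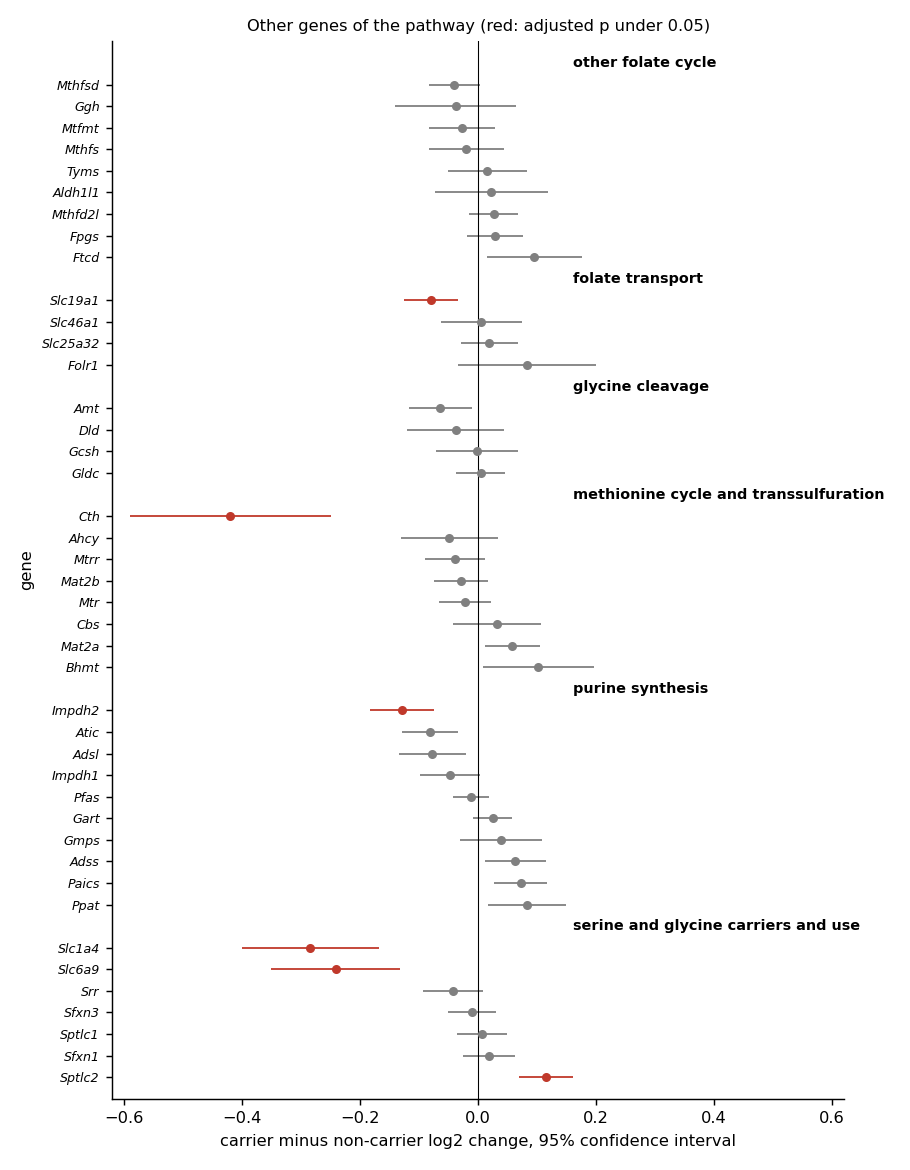
Carrier minus non-carrier log2 change with its 95% confidence interval (x axis) for the 42 further genes (y axis), grouped by function, with called genes in red. *Cth* lies lowest at -0.42 and *Sptlc2* is the only called gene above 0, at 0.12.

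After serum and run were removed from each gene, the array-to-array residuals of the 4 mitochondrial enzymes went together, with Pearson's r of 0.69 to 0.85 over 59 arrays for 6 pairs (Spearman's rho 0.57 to 0.82). With *Phgdh* and *Psat1* they gave r of 0.50 to 0.89. With *Shmt1* and *Mthfd1* they gave r of -0.46 to -0.17 in 8 pairs (rho -0.40 to -0.12), and *Shmt1* with *Mthfd1* gave 0.48 (rho 0.43). The arrays share runs, RNA preparation and normalization, and the residuals keep the differences in serum change between runs, so these values are descriptions.

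The genes most like each enzyme by this residual r over 59 arrays were looked up among all genes. *Mthfd2* was nearest to *Cars*, the cysteinyl-tRNA synthetase (r 0.943), *Aldh18a1* of proline synthesis (r 0.909) and *Slc1a4* (r 0.892). *Shmt2* was nearest to *Slc7a5* (r 0.907) and *Slc3a2* (r 0.885), the chains of an amino acid exchanger, and to *Pycr1* of proline synthesis (r 0.882). *Psat1* was nearest to the cationic amino acid transporter *Slc7a3* (r 0.953), the asparagine synthetase *Asns* (r 0.918) and *Xpot* (r 0.915). *Aldh1l2* was nearest to *Xpot*, a tRNA exporter (r 0.938), *Slc3a2* (r 0.932) and *Phf10* (r 0.912), and *Mthfd1l* to *Pycr1* (r 0.905), *Sesn2* (r 0.898) and *Psat1* (r 0.890). For *Phgdh* the values were lower, 0.728 with *Slc38a2*, 0.724 with *Phf10* and 0.676 with *Aars*. In the carrier contrast the nearest genes of *Psat1*, *Shmt2*, *Mthfd2*, *Mthfd1l* and *Aldh1l2* were all called lower themselves (limma, adjusted p from 0.00179 for *Cars* to 0.0313 for *Pycr1*), with log2 changes from -0.46 for *Slc7a3* to -0.18 for *Xpot*. Of all genes 1.65% were called lower. The residuals keep the differences in serum change between runs, so likeness and serum change are not separate results. The mean of the 4 mitochondrial enzymes was nearest to *Slc7a3* (r 0.955), *Xpot* (r 0.942) and *Aldh18a1* (r 0.939).

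The cytosolic enzymes had other neighbours. *Shmt1* was most like *Rpa1*, a subunit of the replication protein that binds single-stranded DNA (r 0.671), *Hmgn2* (r 0.666) and *Tprgl* (r 0.635), and *Mthfd1* most like *Chd1l* (r 0.714), *Nde1* (r 0.694) and *Gins1*, a subunit of the replication helicase (r 0.691). For the carrier contrast the adjusted p of these 6 genes from limma lay between 0.0705 for *Rpa1* and 0.860 for *Gins1*. The residuals of *Atf4* gave r of 0.52 to 0.80 with the mitochondrial enzymes and of -0.29 to -0.033 with the cytosolic ones over 59 arrays. *Atf4* itself changed by -0.25 in the carrier contrast (SE 0.051; limma, adjusted p = 0.00329).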

How the data were processed

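Gene expression was measured in 59 samples, 29 with carrier and 30 with non-carrier serum. The authors deposited linear-scale intensities, 1 per gene symbol and array, made with RMA in aroma.affymetrix as the mean of the exons of a gene, after removal of outlier arrays. The submitters' processing notes also name Affymetrix Expression Console. The files name no genome build, and the number of arrays limits the precision. Array medians lay between 151 and 183.

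Log2 intensities (pseudocount 0, no filter) were tested in R 4.3.3 with limma 3.58.1 (lmFit, eBayes) and the run, read from the titles, as a block, two-sided and with Benjamini-Hochberg adjustment over 19613 genes. F-tests covered the run and the serum by run interaction. The fits were tested on simulated data. Alternatives covered the block, normalization, filter, pseudocount, variance model, array weights and arrays left out.

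Members and lists were chosen with earlier results of these data known. The genes named were all members, called genes and the largest change of each further list, and the 3 genes most like each member by residual correlation. *Atic*, *Tyms*, the further genes and markers named for an unadjusted p under 0.05 and the windows printed were chosen after their values were seen. Some listed genes are not reported here. Protein sequences were not used here.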

Additional observations from a re-analysis of the deposited data

Results flagged for a closer look

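The serum change of *Psat1* (adjusted p = 0.0358), *Shmt2* (adjusted p = 0.0413) and *Mthfd2* (adjusted p = 0.00339) differed between runs by the limma F-test of serum by run, as given above.

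Among 32 groups of 4 to 6 arrays, gene by gene within a run, 2 had an array far from the others by Dixon's criterion, where chance gives about 1 in 20. In run C with carrier serum the lowest *Phgdh* value was 9.44, with the nearest at 9.72. In the run motorneuron with non-carrier serum the highest *Shmt1* value was 6.80, with the nearest at 6.62.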

How the results depend on the processing

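Over 26 alternatives to the serum fit, 17 left the count of members called lower within 1.5 times of 5. It was 0 with no run block and 0 (limma; 5 lower at an unadjusted p under 0.05 in each) with runs E and F left out, 1 with runs E and F alone, and 2 to 6 with single runs left out. Of all genes, 0%, 0.163%, 0.0867% and 0.413% to 4.68% were called lower in these fits, in the same order. No alternative called a member higher. The change of *Mthfd2* was -0.59 to -0.18 and never above 0. At -0.59, with the 4 motor neuron genes of the study's batch correction in place of the run, it was not called (limma, adjusted p = 0.0516). Of the 26 alternatives, the call was lost in 11 for *Psat1*, 9 for *Mthfd1l*, 6 for *Aldh1l2* and 5 each for *Shmt2* and *Mthfd2*. The sign of *Shmt1* turned with the 4 motor neuron genes in place of the run (-0.016), quantile normalization (-0.0044), runs E and F alone (-0.023) and without run D (-0.0031; -0.0031 to 0.039 over single runs left out), that of *Mthfd1* with runs E and F alone (0.0067), and none of these was called. The filter on dim genes removed *Shmt1* and so gave no difference between compartments.

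Replicate numbers were shared in only 3 runs. Samples with the same number deviated together (r over 0.1) in 1 of 8 pairs (-0.13 to 0.33). Both pairs of HB9MNs gave 0.063, since with 2 arrays a group 1 value fixes the other. So few pairs cannot exclude a pairing, and the numbers were not taken to pair the samples. With the replicate block on these 16 arrays limma called 0 members (2 lower at an unadjusted p under 0.05) and 0 further pathway genes lower or higher (1 and 5 at an unadjusted p under 0.05), *Mthfd2* changed by -0.18 (adjusted p = 0.595) and *Phgdh* by 0.042. With the run block on the same 16 arrays the counts were also 0, 0 and 0, and *Phgdh* changed by 0.042. Of all 19613 genes limma called 0 with either block on these arrays.

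Of the further pathway genes 5 were called lower and 1 higher. The counts were 0 and 0 with no run block (limma; 3 and 1 at an unadjusted p under 0.05), 12 and 4 with the 4 motor neuron genes beside the run (2174 and 3952 of all genes), 1 and 0 with them in its place, 1 and 0 with runs E and F alone, and 1 lower with E and F left out. Of all genes, 0 and 0 were called with no run block and 50 and 4 with the motor neuron genes in place of the run. With runs E and F alone 17 and 0 of all genes were called, and with E and F left out 32 lower. Higher pathway genes were 2 with run C parted, quantile normalization or the filter on dim genes (206, 180 and 145 of all genes tested). They were 4, with 8 lower, with array weights (1363 and 1440 of all genes). With single runs left out 3 to 6 pathway genes were lower and 1 to 4 higher, beside 81 to 918 and 22 to 683 of all genes. The count of members whose serum change differed by run was 1 with run C parted. It was 0 to 4 with single runs left out, beside 0 to 54 of all genes. This range was computed after the data were seen. So were the fits without non-carrier replicate 12 and without the 2 arrays called by Grubbs' test within runs (average r 0.979 and 0.990). The cause of these shifts was not tested.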
